A study of Rattus norvegicus with 24 samples.

Results

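The levels of miRNAs in the PVN of the hypothalamus, which the study spells out as periventricular nucleus, were compared with those in the central nucleus of the amygdala (CEA) of rats that had undergone partial hepatectomy. The comparison took every small RNA library of operated rats, 9 of the PVN and 9 of the CEA, which is 18 of the 24 libraries of the series, and left aside the 6 libraries of normal controls (NC). All operated rats were male Sprague–Dawley rats, bought at 7 weeks of age, from which a part of the left liver lobe was removed. The HT rats received hepatectomy alone, the HT+EA rats also received electroacupuncture with needles at the ST36 and SP6 points, and the SEA rats received the same needles without current. Rats of all 3 treatments were held in a restrainer for the sessions, and the brains were collected 24 h later. Each of the 3 treatments gave 3 libraries of each nucleus.

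The PVN, a name that more often stands for the paraventricular nucleus, lies beside the third ventricle and is described by the study as a site of CRH neurons. It holds neurosecretory neurons that drive the release of stress and other hormones from the pituitary, and the CEA is the mainly GABAergic output nucleus of the amygdala, tied to fear, anxiety and pain. A miRNA is cut from a hairpin RNA whose 5p or 3p arm, or both, can be kept, and its seed (bases 2 to 8) pairs with target mRNAs to hold down their translation or stability. miRNAs that share a hairpin, a host gene or a cluster are often transcribed together, and miRNAs that share a seed are expected to share targets. The study profiled both nuclei in rats after liver surgery and acupuncture, and the comparison of the nuclei describes how their miRNA content differed in operated animals. The table of miRNA counts holds no mRNA, and the study's mRNA libraries were not used here. The identity of the dissected tissue was therefore not checked against Crh, Avp, Oxt or Trh of the PVN or Prkcd and Sst of the CEA.

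The mature sequences of a selection of the miRNAs described below are shown first, chosen from those with large differences, their hairpin partners and their seed families, as given by RefSeq (GRCr8), with the seed in capitals. The first set was higher in the PVN.
miR-653-5p: uUGAAACAuucucuacugaac
miR-653-3p: uUCACUGGgguuuguuucacua
miR-489-5p: uGUCGUAUgcgugaugacacguuc
miR-216b-5p: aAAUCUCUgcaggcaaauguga
miR-217-5p: uACUGCAUcaggaacugacugg
miR-375-3p: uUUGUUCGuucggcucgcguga
miR-298-5p: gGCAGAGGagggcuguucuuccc

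The second set was higher in the CEA.
miR-139-5p: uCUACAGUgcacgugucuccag
miR-221-3p: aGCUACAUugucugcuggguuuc
miR-222-3p: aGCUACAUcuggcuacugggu
miR-128-3p: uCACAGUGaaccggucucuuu
miR-132-3p: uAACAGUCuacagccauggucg
miR-212-3p: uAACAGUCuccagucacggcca

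The third set holds families with 1 shared seed, in which members went the same way or opposite ways.
miR-7a-5p: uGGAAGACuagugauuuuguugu
miR-7b: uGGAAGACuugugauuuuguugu
miR-135a-5p: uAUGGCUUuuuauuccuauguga
miR-135b-5p: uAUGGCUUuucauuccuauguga
miR-34b-5p: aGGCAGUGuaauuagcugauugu
miR-34c-5p: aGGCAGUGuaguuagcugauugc
miR-34a-5p: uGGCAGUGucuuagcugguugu
miR-449a-5p: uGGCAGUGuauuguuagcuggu
miR-181a-5p: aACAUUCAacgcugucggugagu
miR-181b-5p: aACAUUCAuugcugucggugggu
miR-181c-5p: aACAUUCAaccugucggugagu
miR-181d-5p: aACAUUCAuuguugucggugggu

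The libraries held 8789556 to 14828269 miRNA reads in the PVN and 9868383 to 14913564 in the CEA, so that 3 reads were worth 0.201 to 0.341 counts per 1000000 (CPM). Levels below are CPM scaled by TMM, a factor that sets the bulk of miRNAs equal between libraries. The factors lay between 0.974 and 1.09 except in CEA HT replicate 1, which had 0.759. In that library miR-148a-3p took 16.1% of the reads against a median of 8.62% in the other CEA libraries, and miR-139-5p took 2.0% against 0.963%. PVN HT replicate 3 was the lone highest or lowest PVN library for 18 of the miRNAs named here, and PVN SEA replicate 1 held 5.09 CPM of miR-741-3p, of an X-linked cluster, against at most 1.0 CPM in the other PVN libraries. These 3 libraries were kept, and for the named groups of miRNAs the counts without them are given beside each count that they changed. The first principal component of 520 miRNAs with at least 1 CPM held 61.7% of the variance and separated the nuclei. The study's methods divide 12 rats among 4 groups and state that tissue was limited and that samples were taken from more than 1 rat of a common batch, but they do not say which or how many animals gave a library. The p-values therefore measure the spread between these libraries, which may be partly technical.

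Of 1073 miRNAs with at least 1 count, 387 (36.1%) differed between the nuclei at an adjusted p under 0.05 (edgeR quasi-likelihood test, treatment as covariate, Benjamini-Hochberg adjustment over all 1073). Of these, 186 (17.3%) were higher in the PVN and 201 (18.7%) were higher in the CEA. The median log2 difference (PVN minus CEA, here and below) over all tested was -0.01. Differences of at least 2-fold were found for 145 miRNAs, 82 of them PVN higher and 63 CEA higher. Known miRNAs made up 352 of the 387 (50.4% of those tested), and 35 were predicted hairpins (9.33% of those tested). Scaling to the upper quartile moved the median of all miRNAs to -0.13 and changed the split to 150 PVN higher and 247 CEA higher, while scaling to library totals moved it to 0.05 and gave 206 PVN higher and 169 CEA higher. Which side held more miRNAs, and any difference smaller than these shifts, therefore depended on the scaling.

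The share of miRNAs that passed the test was lowest for rare ones. It was 11% below 1 CPM, where the median SE of the log2 difference was 0.85, and 76.2% at 1000 CPM or more, where the median SE was 0.078. Among the 363 miRNAs with a mean of at least 10 CPM, 245 (67.5%) passed, 109 (30.0%) as PVN higher and 136 (37.5%) as CEA higher. The median log2 difference was 0.66 over the PVN-higher miRNAs of this class and -0.57 over the CEA-higher ones. The largest differences in this class lay on the PVN side, with 9 miRNAs at least 4-fold higher in the PVN and 1, miR-139-5p, at least 4-fold higher in the CEA. The 9 PVN libraries and the 9 CEA libraries did not overlap at all for 152 miRNAs (14.2%), 75 (6.99%) PVN higher and 77 (7.18%) CEA higher.

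**Figure D1:**
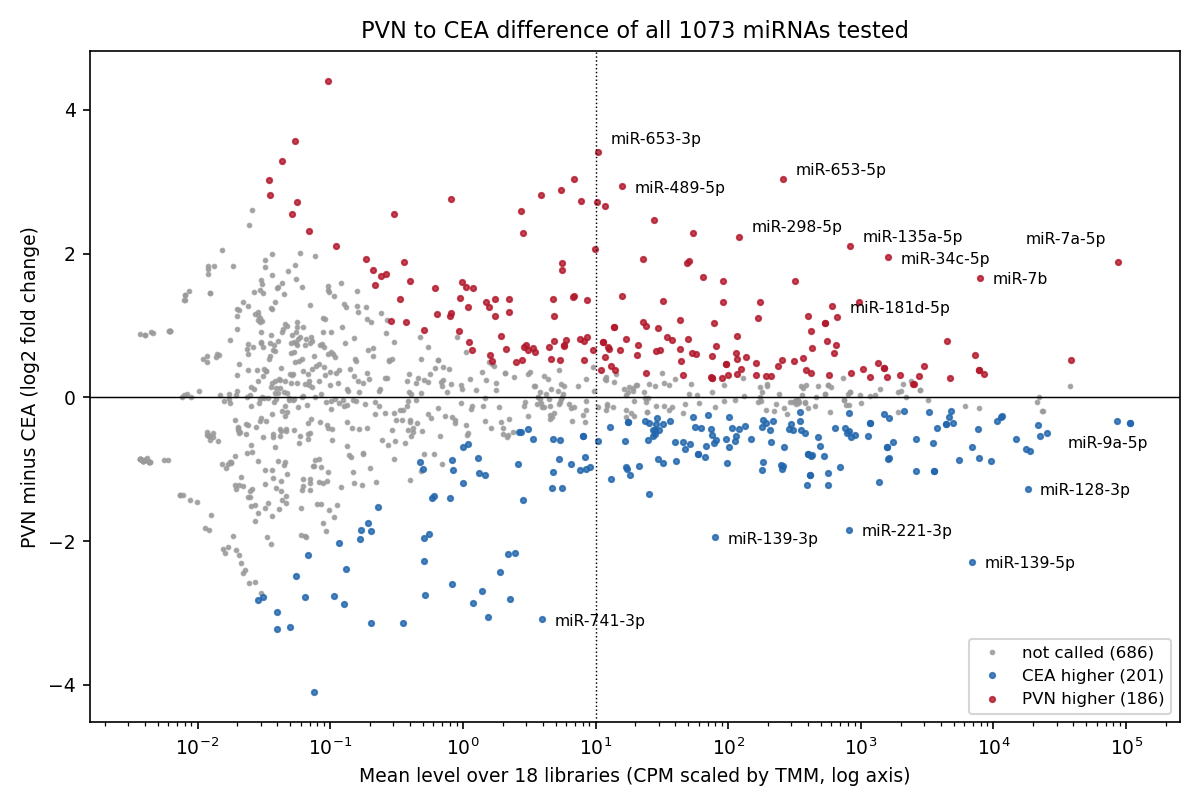
Log2 difference (PVN minus CEA) of each of the 1073 miRNAs tested against its mean level over the 18 libraries (CPM scaled by TMM, log axis), with 186 PVN-higher miRNAs in red, 201 CEA-higher miRNAs in blue and the rest in grey. To the right of the dotted line at 10 CPM the points far from 0 lie mostly above it, with the arms of miR-139 and miR-221-3p as the points farthest below.

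The largest differences among miRNAs of at least 10 CPM were those of arms from the Calcr intron. miR-653 and miR-489 are cut from an intron of Calcr, the calcitonin receptor gene, and all 4 of their arms were higher in the PVN, with a median log2 difference of 3.04. The PVN-higher share was 17.3% over all miRNAs tested and 30.0% at 10 CPM or more, and 6.99% of all tested were PVN higher without overlap. The level of miR-653-5p was 302, 475 and 578 CPM (lowest, median and highest of 9) in the PVN, from 3625 to 8056 reads, and 21.8, 60.5 and 79.4 CPM in the CEA. No CEA library came near the lowest PVN library. The difference was 8.19-fold (log2 3.03 ± 0.15 SE, adjusted p = 5.7e-17). miR-653-3p was measured at 15.9, 19.1 and 22.3 CPM in the PVN and at 0.753, 1.87 and 2.82 CPM in the CEA, a log2 difference of 3.41 ± 0.16. The arms of miR-489 differed by 2.94 ± 0.18 (5p) and 3.04 ± 0.21 (3p) on the log2 scale, again without overlap.

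miR-7 showed a large difference at a high level. This miRNA is known for its high level in neuroendocrine cells and for the circular RNA Cdr1as, which carries many of its sites. miR-7a-5p was measured at 115267, 134766 and 151618 CPM in the PVN and at 25496, 33934 and 49297 CPM in the CEA. It was the miRNA with the most reads in the PVN (13.9% of reads on average) and ranked at number 4 in the CEA (3.61%). The difference was 3.68-fold (log2 1.88 ± 0.10, adjusted p = 2.0e-16), and the nuclei did not overlap. miR-7b, which differs from miR-7a-5p by 1 base of 23, was also higher in the PVN (log2 1.66 ± 0.10), and reads of these near-identical sequences may have been shared between them in counting. miR-7a-5p can be cut from more than 1 hairpin, and the opposite arms of these hairpins moved apart. miR-7a-2-3p was measured at 31.2, 40.5 and 45.6 CPM in the PVN and at 10.4, 20.7 and 23.5 CPM in the CEA (log2 0.97 ± 0.12, adjusted p = 4.1e-08). miR-7a-1-3p, whose hairpin lies in an intron of Hnrnpk, a gene for an RNA-binding protein, was measured at 27.2, 30.4 and 39.0 CPM in the PVN and at 41.1, 47.3 and 58.5 CPM in the CEA (log2 -0.62 ± 0.09, adjusted p = 1.7e-06). Neither arm overlapped between the nuclei, and each went its own way.

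**Figure D2:**
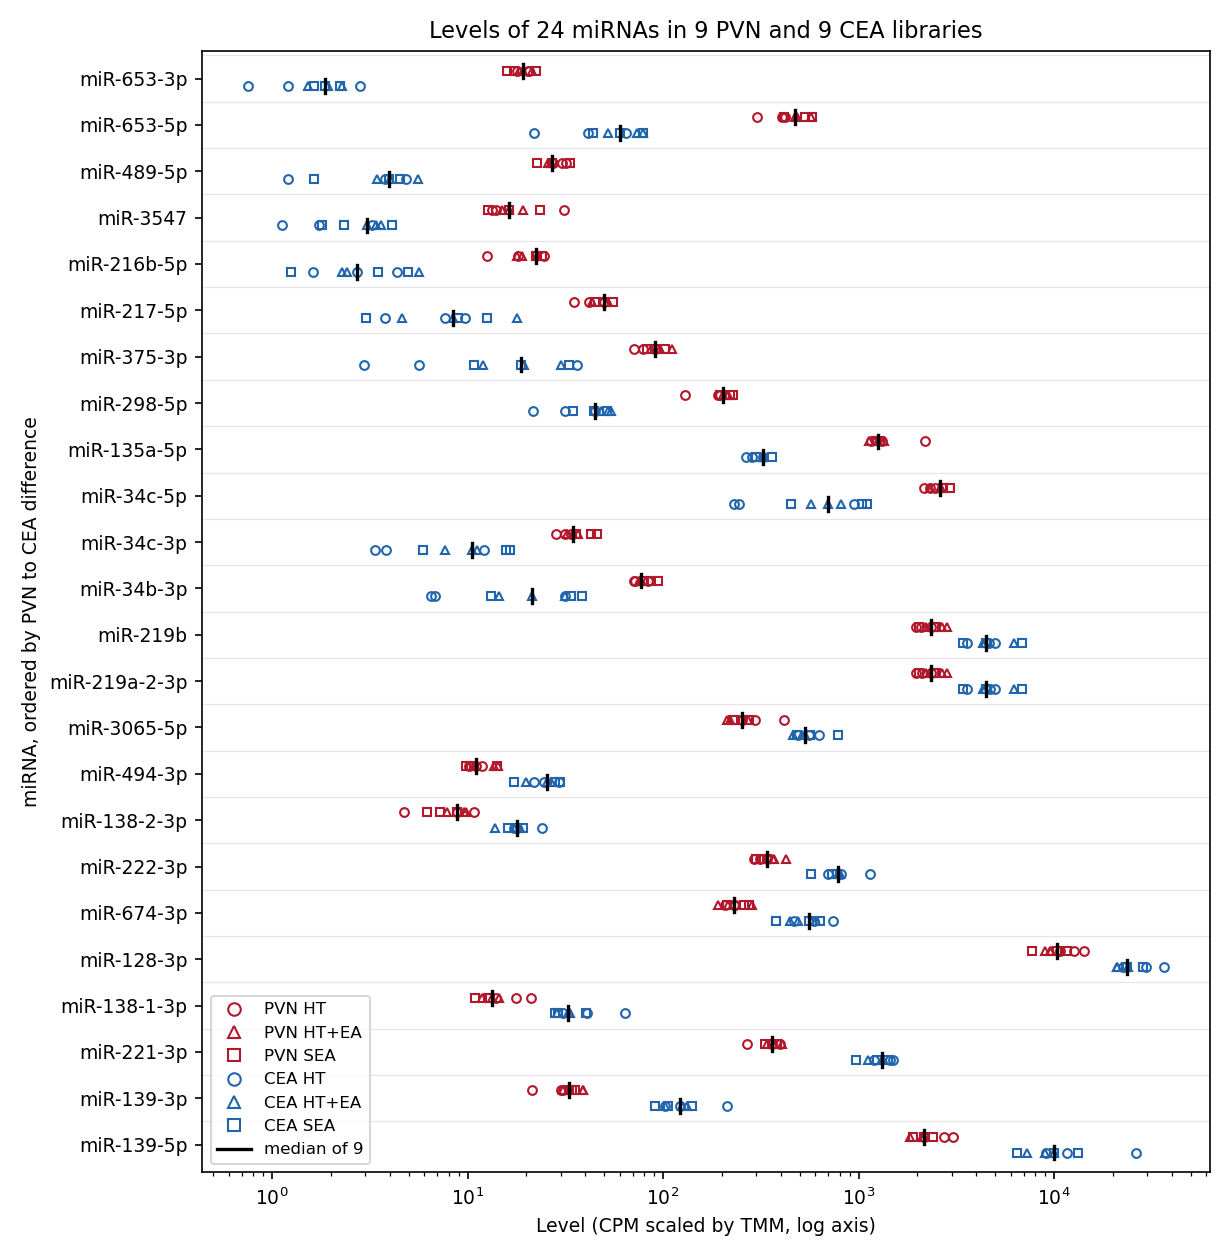
Levels (CPM scaled by TMM, log axis) of 24 miRNAs in the 9 PVN (red) and 9 CEA (blue) libraries, with the treatment given by the marker and the median of 9 by a black bar. The miRNAs are ordered by their log2 difference, from miR-653-3p at 3.41 to miR-139-5p at -2.29, and red and blue points do not overlap in any row, since the absence of overlap was part of how these miRNAs were chosen.

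miR-375-3p, a miRNA of pancreatic islets and pituitary endocrine cells, was measured at 71.4, 90.7 and 112 CPM in the PVN and at 2.94, 18.7 and 36.3 CPM in the CEA. Its log2 difference was 2.29 ± 0.27 (adjusted p = 1.8e-08), and the spread among CEA libraries was the wider, with CEA HT replicates 1 and 3 lowest. The neighbouring hairpins of miR-216 and miR-217, best known from pancreatic acinar cells, went together. miR-217-5p was measured at 34.9, 49.6 and 55.7 CPM in the PVN and at 3.04, 8.38 and 17.9 CPM in the CEA (log2 2.47 ± 0.21), and miR-216b-5p was 6.35-fold higher in the PVN (log2 2.67 ± 0.20). Both arms of miR-216a lay below 10 CPM and were also PVN higher, with log2 differences of 2.59 (miR-216a-5p) and 2.82 (miR-216a-3p). miR-3547 had a log2 difference of 2.72 ± 0.21 (12.7, 16.3 and 31.2 CPM against 1.13, 3.06 and 4.11 CPM).

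Other miRNAs of the PVN side came from imprinted or host genes of the brain. The 3 measured miRNAs of the Gnas locus, an imprinted locus that encodes the stimulatory G protein subunit, were all PVN higher with a median log2 difference of 1.87. Of these, miR-298-5p was measured at 129, 202 and 228 CPM in the PVN and at 21.5, 45.1 and 53.9 CPM in the CEA (log2 2.24 ± 0.12, adjusted p = 2.0e-16). In the intron of Gabre, the gene of a GABA-A receptor subunit, miR-224-5p and miR-452-5p were PVN higher (log2 2.88 ± 0.19 and 2.73 ± 0.18), while their 3p arms (0.60 and 1.55) did not pass the test. All 4 arms of the miR-135 family were PVN higher. miR-135a-5p was measured at 1127, 1256 and 2189 CPM in the PVN, the highest value being that of HT replicate 3, and at 265, 323 and 359 CPM in the CEA (log2 2.11 ± 0.10, adjusted p = 5.7e-17). miR-135b-5p, which differs from it by 1 base of 23, was PVN higher by 1.14 ± 0.08 on the log2 scale. Of 7 miR-344 family members, 6 were PVN higher and 1 did not pass (17.3% of all miRNAs tested were PVN higher, 30.0% at 10 CPM or more), with a median of 0.81 and with miR-344b-3p at 1.32 ± 0.10.

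Members of 1 seed family did not always go the same way. Among 48 seeds shared by at least 2 known miRNAs with at least 1 CPM, 27 had at least 2 members that passed the test. In 20 of these the members that passed went 1 way, and in 7 they went both ways. The seed GGCAGUG was among the mixed ones. miR-34c-5p was measured at 2173, 2616 and 2923 CPM in the PVN and at 231, 694 and 1106 CPM in the CEA (log2 1.95 ± 0.19, adjusted p = 5.3e-10). miR-34b-5p, of the same cluster, was PVN higher by 2.06 ± 0.21. miR-34a-5p, known as a target of p53 and cut from another locus, was CEA higher with overlapping libraries (213, 244 and 336 CPM against 216, 377 and 493 CPM, log2 -0.46 ± 0.13), and miR-449a-5p, of the same seed, stayed below 4 CPM in every library and did not pass the test (log2 -0.14 ± 0.24).

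The miR-181 family split by cluster. miR-181a-5p was measured at 3323, 3951 and 4319 CPM in the PVN and at 5316, 6815 and 9262 CPM in the CEA (log2 -0.87 ± 0.09, adjusted p = 5.9e-10), and miR-181b-5p was also CEA higher (log2 -0.85 ± 0.09). miR-181d-5p was measured at 734, 942 and 1002 CPM in the PVN and at 352, 419 and 495 CPM in the CEA (log2 1.12 ± 0.08, adjusted p = 1.2e-13), and miR-181c-5p was PVN higher (log2 0.82 ± 0.10). None of the 4 overlapped between nuclei. miR-181b-5p and miR-181d-5p share the seed ACAUUCA and differ by 1 base of 23, yet they went opposite ways. Over the family, 3 of 10 arms were PVN higher, 5 were CEA higher and 2 did not pass. The background was 17.3% PVN higher and 18.7% CEA higher over all miRNAs tested, and 30.0% and 37.5% at 10 CPM or more. The family counts lay near the latter shares. Other seeds kept their members together, as in the miR-132 and miR-212 or the miR-221 and miR-222 pairs described below.

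Among miRNAs of at least 10 CPM the largest difference of the CEA side was that of miR-139, which is cut from an intron of Pde2a, a phosphodiesterase gene. miR-139-5p was measured at 1832, 2152 and 3027 CPM in the PVN and at 6497, 9962 and 26314 CPM in the CEA, the highest value being that of CEA HT replicate 1. The difference was 4.90-fold (log2 -2.29 ± 0.15, adjusted p = 5.7e-14), and it stayed between -2.35 and -2.09 when any 1 library was left out. miR-139-3p followed (21.3, 33.0 and 39.1 CPM against 90.6, 122 and 213 CPM, log2 -1.95 ± 0.14). miR-221 and miR-222, clustered miRNAs known to hold down the cell cycle inhibitor p27, were CEA higher in all 4 arms, with a median log2 difference of -1.32. The CEA-higher share was 18.7% over all miRNAs tested and 37.5% at 10 CPM or more. miR-221-3p was measured at 269, 363 and 405 CPM in the PVN and at 967, 1312 and 1492 CPM in the CEA (log2 -1.84 ± 0.09, adjusted p = 5.7e-17), and miR-222-3p had a log2 difference of -1.22 ± 0.09. The nuclei did not overlap for either.

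miR-132 and miR-212, whose transcript is induced by neuronal activity through CREB, were CEA higher in all 4 arms with a median of -1.01. miR-132-3p was measured at 785, 807 and 1064 CPM in the PVN and at 1009, 1807 and 3527 CPM in the CEA (log2 -1.17 ± 0.13, adjusted p = 3.2e-09), so that the lowest CEA library lay within the PVN range. miR-30, a family of abundant miRNAs, had 9 of 11 arms CEA higher and none PVN higher (median -0.50), and the miR-17 to miR-92 clusters, known from cell proliferation, had 10 of 23 CEA higher and 1, miR-92b-3p (log2 0.38), PVN higher (median -0.50). In the let-7 family 3 of 20 arms were PVN higher and 7 CEA higher, with differences of at most 0.82 in size and a median of -0.15. Of all miRNAs tested 17.3% were PVN higher and 18.7% CEA higher, and of those with at least 10 CPM 30.0% and 37.5%, so the let-7 counts lay near the background. With upper-quartile scaling none of the let-7 arms was PVN higher and 9 were CEA higher, and without the 3 libraries that stood apart 2 were PVN higher and 6 CEA higher. The PVN-higher let-7g-3p (log2 0.56) was at 0.25 (adjusted p = 0.22) without PVN HT replicate 3, and its call was also lost without CEA HT replicate 2, CEA HT replicate 3, PVN HT+EA replicate 3 or PVN SEA replicate 2. The miR-29 family had 1 of 6 arms PVN higher and 2 CEA higher, the PVN-higher one being miR-29c-3p (log2 0.27, adjusted p = 0.035), and that call was lost without the 3 libraries that stood apart, or without CEA HT replicate 1, CEA HT replicate 2 or PVN HT replicate 3 alone (log2 0.20 to 0.23). The CEA-higher arms were miR-29a-3p (log2 -0.19, adjusted p = 0.043), which lost its call in most fits that left out 1 library, and miR-29a-5p, and neither passed when scaled to library totals.

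Of the 5 most abundant miRNAs, miR-7a-5p had the largest difference and the others differed by less. miR-9a-5p, a miRNA of neural progenitors and neurons, was measured at 85759, 94638 and 98918 CPM in the PVN and at 111075, 116793 and 146228 CPM in the CEA (log2 -0.36 ± 0.07, adjusted p = 2.6e-05). miR-9b-3p had nearly the same counts as miR-9a-5p (log2 -0.36). The mature sequences of these miRNAs are antisense to each other, and of 52 known pairs that were antisense over at least 15 bases, 30 had counts within 1.5 times of each other in every library. In the 18 libraries the reads of miR-9a-5p were 1.0021 to 1.0029 times those of miR-9b-3p. Some pairs, such as miR-210-3p and miR-3574, had equal counts in every library and are 1 measurement. How reads were assigned to such pairs is not stated. Shares of reads may count 1 set of reads more than once. miR-148a-3p was listed as CEA higher (log2 -0.33 ± 0.13, adjusted p = 0.049), with 67183, 72431 and 83188 CPM in the PVN and 62890, 86041 and 212436 CPM in the CEA. That difference rested on CEA HT replicate 1 and was -0.13 (adjusted p = 0.20) without it, and the call was also lost when most other single libraries were left out.

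miR-127-3p was the fifth most abundant and was PVN higher without overlap (37790, 46824 and 50891 CPM against 29412, 30956 and 36233 CPM, log2 0.53 ± 0.07). It belongs to the imprinted Dlk1-Dio3 locus, which holds the largest miRNA cluster of mammals and is expressed from the maternal chromosome. Of 88 arms of this locus, 35 were PVN higher, 11 were CEA higher and 42 did not pass, with a median of 0.20, against a background of 17.3% PVN higher and 18.7% CEA higher over all miRNAs tested (30.0% and 37.5% at 10 CPM or more). Without the 3 libraries that stood apart the PVN-higher count was 41, and with upper-quartile scaling the counts were 29 and 16. The arms with the smallest p were PVN higher. miR-770-3p was measured at 390, 495 and 556 CPM in the PVN and at 124, 148 and 192 CPM in the CEA (log2 1.62 ± 0.10), and miR-134-5p, known for its role at dendritic spines, at 1132, 1446 and 1604 CPM against 469, 557 and 621 CPM (log2 1.33 ± 0.08). Against them, miR-494-3p (log2 -1.08 ± 0.12), miR-377-3p (-0.86 ± 0.17) and miR-337-5p (-0.69 ± 0.10) of the same locus were CEA higher.

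**Figure D3:**
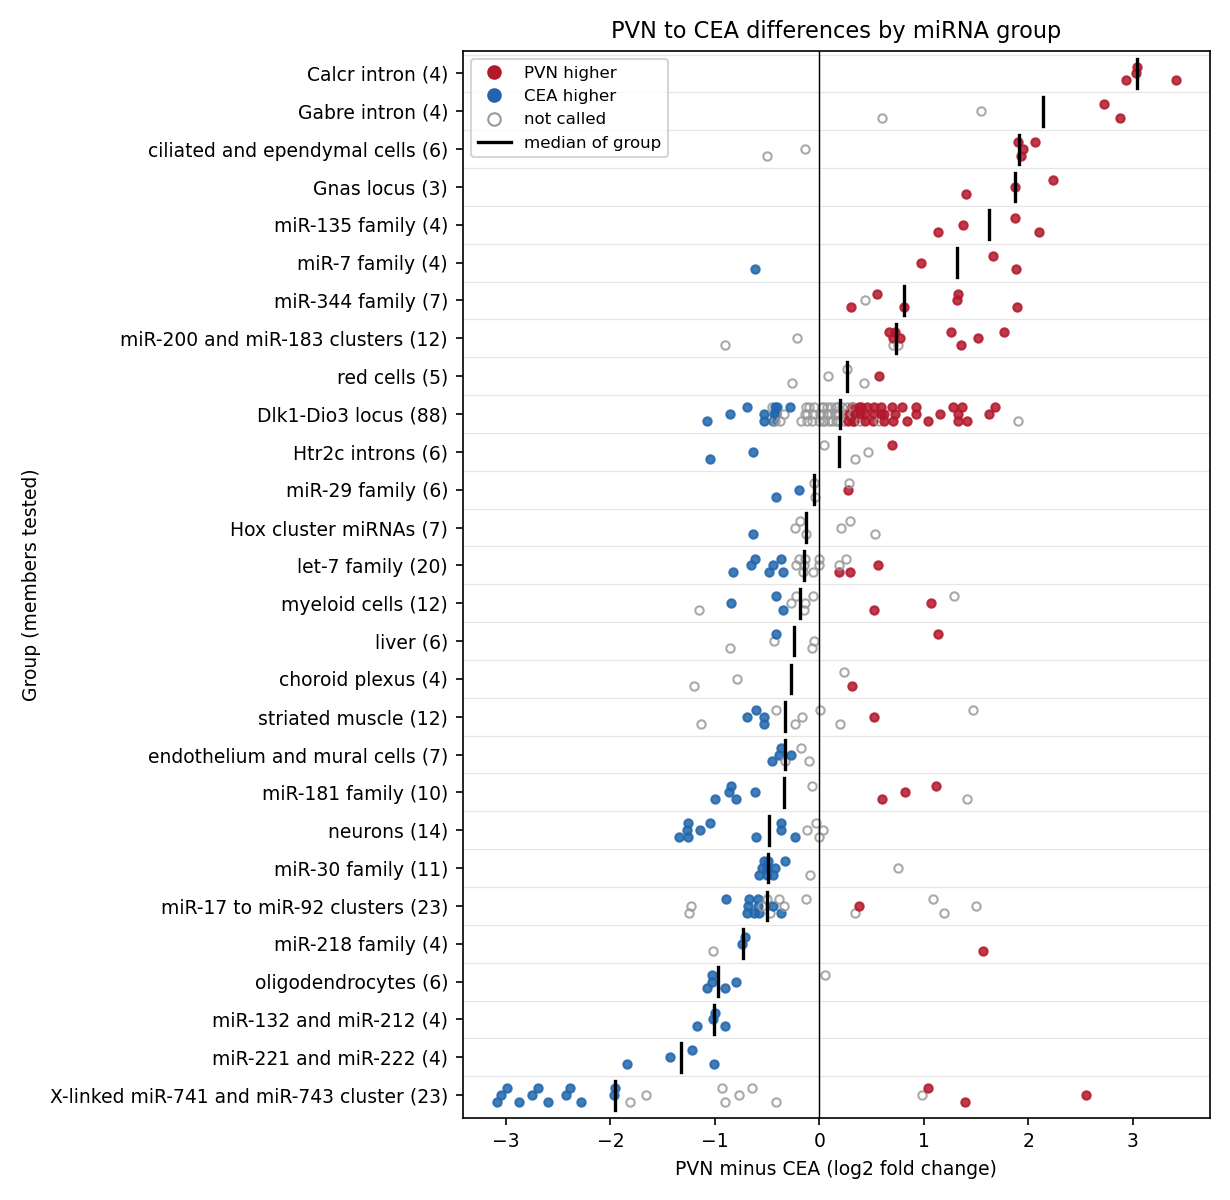
Log2 difference (PVN minus CEA) of every tested member of 28 groups of miRNAs, with PVN-higher members in red, CEA-higher members in blue, members that did not pass as open circles and the median of the group as a black bar. The group medians run from 3.04 for the Calcr intron to -1.96 for the X-linked miR-741 and miR-743 cluster, and the miR-7, miR-181, let-7 and Dlk1-Dio3 groups hold members of both colours.

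A cluster of low-abundance miRNAs on the X chromosome is best known from testis. Of its 23 tested arms, 12 were CEA higher, 3 were PVN higher and 8 did not pass, with a median of -1.96, against 18.7% CEA higher and 17.3% PVN higher over all miRNAs tested and 11% passing in either direction below 1 CPM. Without the 3 libraries that stood apart 11 were CEA higher and 2 PVN higher. miR-741-3p was the most abundant of the CEA-higher arms, at 3.21, 6.66 and 12.9 CPM in the CEA and at 0, 0.432 and 5.09 CPM in the PVN. The value of 5.09 CPM was that of PVN SEA replicate 1, and the next PVN library had 1.0 CPM. The log2 difference was -3.09 ± 0.41 (adjusted p = 2.0e-07), and -3.97 without that library. The 3 PVN-higher arms were miR-547-3p, miR-547-5p and miR-201-5p, and the last lost its call without the 3 libraries that stood apart and without any 1 of CEA HT replicates 1 and 2, CEA SEA replicate 1, PVN HT replicate 3, PVN HT+EA replicate 2 and PVN SEA replicate 1 (log2 0.87 to 0.99). In the introns of Htr2c, the serotonin 2C receptor gene, miR-448-5p was PVN higher (log2 0.70 ± 0.20), miR-1298 (-0.64 ± 0.18) and miR-1912-3p (-1.04 ± 0.25) were CEA higher, and 3 of 6 arms did not pass. Without the 3 libraries that stood apart 2 were PVN higher and 2 CEA higher. Without CEA SEA replicate 2 the log2 differences were -0.34 for miR-1298 and -0.69 for miR-1912-3p. The miR-218 family of the Slit2 and Slit3 introns had 2 of 4 arms CEA higher, miR-218a-5p (log2 -0.74 ± 0.10) and its antisense partner miR-218b, whose near-equal counts may be 1 measurement, and 3 without the 3 libraries, while its passenger arm miR-218a-1-3p, under 0.7 CPM throughout, was PVN higher (1.57 ± 0.55) and lost that call without the 3 libraries, or without PVN HT replicate 3, PVN HT+EA replicate 2 or PVN SEA replicate 1 alone (log2 1.31 to 1.46). With numbered PVN and CEA libraries as pairs, the calls of miR-218a-1-3p and miR-201-5p were lost as well. In the miR-200 and miR-183 clusters, known from epithelia and sensory organs, 8 of 12 arms were PVN higher and 4 did not pass (median 0.74), against 17.3% PVN higher over all miRNAs tested and 30.0% at 10 CPM or more. The libraries of the nuclei overlapped for each of the 12 arms. Levels varied widely within a nucleus, as miR-200a-3p had 40 to 465 reads in the PVN and 7 to 124 in the CEA. Of the 7 tested arms of the Hox clusters 1, miR-10a-5p, was CEA higher (log2 -0.64 ± 0.12) and none was PVN higher, so this count lay near the background of 18.7%.

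miRNAs that mark cell types also differed between the nuclei, and in bulk tissue fewer cells of a type cannot be told apart from less of the miRNA per cell. Of 14 arms of miRNAs of neurons, 10 were CEA higher, none was PVN higher and 4 did not pass (median -0.48), against 18.7% CEA higher over all miRNAs tested and 37.5% at 10 CPM or more. The near-equal counts of miR-9a-5p and miR-9b-3p stand for 2 of the 10. The summed level of the 14 arms was 187752 to 216253 CPM in the PVN and 252084 to 335113 CPM in the CEA. Most of this sum was miR-9a-5p and miR-9b-3p, at a mean of 107433 and 107177 CPM over the 18 libraries. The sum may therefore count 1 set of reads more than once. miR-128-3p, which is enriched in neurons and cut in part from an intron of Arpp21, was measured at 7679, 10302 and 14153 CPM in the PVN and at 20866, 23670 and 36468 CPM in the CEA (log2 -1.27 ± 0.09, adjusted p = 2.2e-13). miR-138-5p was CEA higher (log2 -1.05 ± 0.10), and so were both of its 3p arms. miR-124-3p, the defining miRNA of neurons, differed little (log2 -0.24 ± 0.09, adjusted p = 0.048), the levels of its 9 PVN and 9 CEA libraries overlapped, and its call was lost in most fits that left out 1 library.

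miRNAs of oligodendrocytes were CEA higher in 5 of 6 arms (median -0.97), against 18.7% over all miRNAs tested and 37.5% at 10 CPM or more, with a summed level of 4673 to 6393 CPM in the PVN and 7830 to 15583 CPM in the CEA. miR-219a-2-3p, needed for oligodendrocytes to mature, was measured at 1959, 2356 and 2843 CPM in the PVN and at 3415, 4488 and 6867 CPM in the CEA (log2 -1.03 ± 0.10, adjusted p = 8.9e-10). Its antisense partner miR-219b had near-equal counts in every library, so that 2 of the 5 arms may be 1 measurement. These 2 arms, at a mean of 3567 and 3561 CPM, made up most of the summed level, which may count that measurement more than once. The counts of miR-338-3p were those of its antisense partner miR-3065-5p in every library (log2 -1.07 ± 0.11). The part of myelin-forming cells in the other differences was not tested.

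miRNAs that mark other cell types differed in part. Those of endothelium and mural cells were CEA higher in 4 of 7 arms, and in 5 without the 3 libraries that stood apart (27136 to 33522 CPM summed in the PVN, 34358 to 46471 CPM in the CEA), with miR-126a-3p at -0.39 ± 0.07. Of the 12 arms of myeloid cells 3 were CEA higher, with miR-21-5p at -0.85 ± 0.08, and 2 were PVN higher, with miR-155-5p at 0.52 ± 0.16 (5397 to 6321 CPM summed in the PVN, 8087 to 13847 CPM in the CEA). Most of this sum was miR-21-5p, with 75213 reads in PVN HT+EA replicate 1 against 2055 for the next arm, miR-150-5p. Of all miRNAs tested 18.7% were CEA higher and 17.3% PVN higher, so the myeloid counts lay near the background. The call of miR-146a-5p was lost without CEA HT+EA replicate 3, and that of miR-223-5p without CEA SEA replicate 2, PVN HT+EA replicate 2 or PVN SEA replicate 3. With upper-quartile scaling none of the 12 was PVN higher and 6 were CEA higher. The defining myeloid miRNA, miR-223-3p, did not differ at an adjusted p of 0.05 (log2 -0.06 ± 0.43), and its level ran from 0.904 to 18.9 CPM among libraries.

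The miR-34b and miR-34c arms, which are among the markers of ciliated cells such as those that line the ventricles, were higher in the PVN. For ciliated and ependymal cells, 4 of 6 arms were PVN higher and 2 did not pass (median 1.91, 2302 to 3081 CPM summed in the PVN, 244 to 1165 CPM in the CEA), against 17.3% PVN higher over all miRNAs tested and 30.0% at 10 CPM or more. The 4 were the arms of miR-34b and miR-34c, while miR-449a-5p had log2 -0.14 and miR-449c-5p, at 0 in most libraries, had -0.50. Of the 4 choroid plexus arms 1, miR-204-5p (log2 0.31 ± 0.11), was PVN higher, with 581 to 737 CPM summed in the PVN and 405 to 919 CPM in the CEA, a count near that background. That call was lost without CEA HT+EA replicate 2 or PVN HT+EA replicate 1 (log2 0.29), and the difference was 0.47 without CEA SEA replicate 2. Without the 3 libraries that stood apart 2 arms were PVN higher and 1 CEA higher, and with upper-quartile scaling none was PVN higher and 1 was CEA higher. The part of ciliated cells in the miR-34 difference was not tested.

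The counts for red cells, liver and striated muscle come from few arms and are to be read against the 17.3% PVN higher and 18.7% CEA higher over all miRNAs tested. For miRNAs of red cells 1 of 5 arms, miR-486, was PVN higher (log2 0.57 ± 0.11), with 221 to 315 CPM summed in the PVN and 124 to 330 CPM in the CEA. miR-451-5p did not pass (0.27 ± 0.13). It did pass without CEA SEA replicate 3 (0.39) and in the fit of all 24 libraries (0.35). It also passed with numbered PVN and CEA libraries as pairs (0.30), which the methods do not state. Of the 6 liver arms, miR-122-5p was PVN higher and miR-192-5p was CEA higher (log2 -0.42 ± 0.07), with 628 to 785 CPM summed in the PVN and 827 to 1066 CPM in the CEA. miR-122-5p, the main miRNA of hepatocytes, was at 12 CPM in PVN HT replicate 1 and at a median of 1.16 CPM in the PVN, and its difference of 1.13 ± 0.40 was 0.44 (adjusted p = 0.26) without that library and also lost its call without CEA HT+EA replicate 2 (adjusted p = 0.052). For striated muscle 1 of 12 arms, miR-499-5p (log2 0.53 ± 0.08), was PVN higher and 4 were CEA higher, with 530 to 661 CPM summed in the PVN and 409 to 712 CPM in the CEA. Of the 4, miR-133a-3p and miR-133c had identical counts in every library and are 1 measurement, and miR-133b-3p (log2 -0.69, adjusted p = 0.045) lost its call in most fits that left out 1 library.

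The nuclei differed in much the same way under each treatment. Within HT 241 miRNAs passed (22.5%), within HT+EA 211 (19.7%) and within SEA 208 (19.4%), with 3 libraries against 3 in each. Of the 387 miRNAs of the comparison over all 3 treatments, 379 had the same sign in each treatment, and 159 passed in each with 1 direction, counts that use the libraries that chose the 387. miR-653-5p had log2 differences of 3.15 ± 0.25 in HT, 2.90 ± 0.25 in HT+EA and 3.05 ± 0.25 in SEA. miR-7a-5p had 1.87, 1.97 and 1.79 (each ± 0.17), and miR-139-5p had -2.57 ± 0.25, -2.10 ± 0.24 and -2.21 ± 0.24. For all 3 the direction was the same under each treatment.

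A direct test of the nucleus by treatment interaction found no miRNA at an adjusted p under 0.05 with edgeR, 0 with DESeq2, and 19 (1.77%) and 11 at an unadjusted p under 0.05. The smallest adjusted p was 0.90. Without CEA HT replicate 2, 5 miRNAs passed, and without PVN HT+EA replicate 1, 1 passed. The smallest p-values were those of miR-743b-3p, miR-743b-5p and miR-741-3p, and none of them passed the adjustment in this fit, which did not pair libraries. With numbered PVN and CEA libraries as pairs, which the methods do not state, miR-741-3p passed (adjusted p = 0.0005). miR-741-3p had log2 differences of -4.72 ± 0.74 in HT, -4.02 ± 0.63 in HT+EA and -1.83 ± 0.51 in SEA, the group of the PVN library with 5.09 CPM. A test that missed the threshold does not show that the nuclei differed equally under all treatments.

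The 3 PVN and 3 CEA libraries of normal controls, which had no part in the comparison above, gave the same differences in large part. Between them 266 of 1098 miRNAs passed (24.2%). This was a contrast of the fit of all 24 libraries, so its spread was estimated from the hepatectomized libraries as well. Of the 387 miRNAs, 369 (95.3%) had the same sign in the normal controls, against 57.4% of those that had not passed. Of the 245 that passed in both, 243 had 1 direction and the others went opposite ways. All 50 miRNAs with at least 10 CPM and at least a 2-fold difference had the same sign in the normal controls. Over the 363 miRNAs of at least 10 CPM the log2 differences had a Pearson r of 0.97, a description across miRNAs that were counted in the same libraries and are not independent of each other. Among those of at least 10 CPM that passed, the difference in normal controls was a median of 1.14 times that in hepatectomized rats. miR-653-5p differed by 3.62 ± 0.41 in normal controls on the log2 scale, miR-7a-5p by 2.22 ± 0.19, miR-221-3p by -2.09 ± 0.15 and miR-139-5p by -2.34 ± 0.22.

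**Figure D4:**
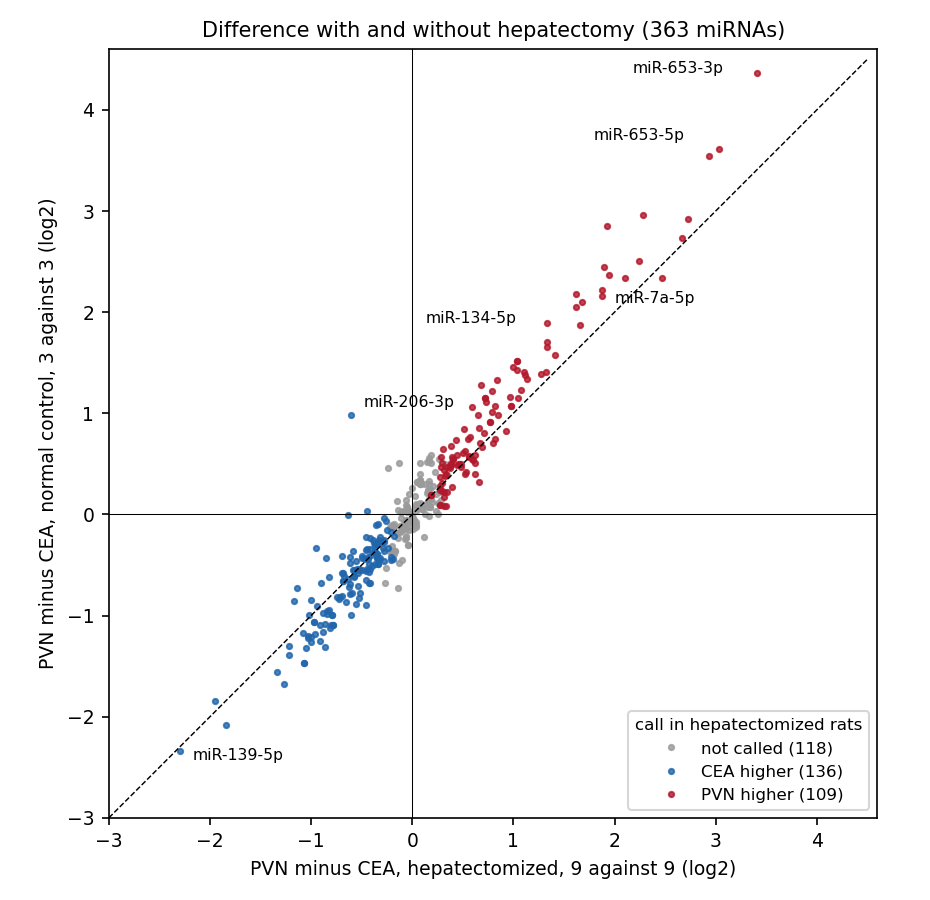
Log2 difference (PVN minus CEA) in normal controls (3 against 3 libraries, vertical axis) against that in hepatectomized rats (9 against 9, horizontal axis) for 363 miRNAs with a mean of at least 10 CPM, coloured by the call in hepatectomized rats. The points lie along the dashed line of equal values (r = 0.97), with differences in normal controls a median of 1.14 times those in hepatectomized rats among the miRNAs that passed, and miR-206-3p stands away from it with -0.60 in hepatectomized rats and 0.98 in normal controls.

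Whether the difference between nuclei differed with hepatectomy was tested as an interaction over all 24 libraries. No miRNA passed with edgeR and 0 with DESeq2, and 45 of 1098 (4.1%) and 35 had an unadjusted p under 0.05. From 1 to 3 miRNAs passed when replicate 1 or 2 of either NC group, CEA HT+EA replicate 1, CEA SEA replicate 2 or PVN SEA replicate 1 was left out. The smallest p was that of miR-206-3p, a miRNA of skeletal muscle. It was CEA higher in hepatectomized rats (7.82, 12.9 and 17.7 CPM in the PVN and 11.7, 18 and 34.8 CPM in the CEA, log2 -0.60 ± 0.16) and had a log2 difference of 0.98 ± 0.32 in normal controls, an interaction of -1.56 ± 0.38 by edgeR (adjusted p = 0.19). The normal controls held 169, 971 and 242 reads of it in the PVN and 152, 435 and 297 in the CEA, and without PVN NC replicate 2, the library with 971, the interaction was -0.78 (adjusted p = 0.76), and without PVN NC replicate 1 it was -1.85 (adjusted p = 0.0053). miR-223-3p, of myeloid cells, followed with an interaction of -3.03 ± 0.82 (adjusted p = 0.26), which passed without CEA HT+EA replicate 1, CEA SEA replicate 2, PVN NC replicate 1 or PVN SEA replicate 1 (adjusted p from 0.027 to 0.042). The normal controls held 147, 949 and 598 reads of miR-223-3p in the PVN and 12, 145 and 116 in the CEA. Hepatectomized libraries held 9 to 177 in the PVN and 9 to 272 in the CEA, and differed widely within a group (272, 18 and 22 in CEA SEA). After it came miR-19b-1-5p (adjusted p = 0.69), with under 0.7 CPM in every hepatectomized library.

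The balance between the arms of 1 hairpin was compared as well, since the ratio of arms within a library needs no scaling between libraries. Of 160 hairpins with both arms at a mean of at least 10 counts, 40 (25.0%) differed in their ratio of 5p to 3p reads (limma, Benjamini-Hochberg adjusted p under 0.05 over the 160), 26 with a larger 5p share in the PVN and 14 with a larger 5p share in the CEA. Where both arms had passed the test of the nuclei, which held for 71 hairpins, 66 had both arms higher in the same nucleus. The other 5 had arms that went opposite ways: miR-127, miR-1843a, miR-323, miR-376b and miR-487b, of which all but miR-1843a lie in the Dlk1-Dio3 locus.

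For miR-376b the 5p arm took 89.9, 91.6 and 92.7% of the reads in the PVN (lowest, median and highest of 9) and 80.8, 84.4 and 86.2% in the CEA. The log2 ratio of the arms differed by 1.09 ± 0.09 between the nuclei (limma, adjusted p = 1.1e-07), and no library of the CEA reached the lowest of the PVN. miR-323 had 1.38, 1.67 and 2.18% of its reads on the 5p arm in the PVN and 0.572, 0.71 and 0.851% in the CEA. miR-127 went the other way, with a 5p share of 2.83, 3.18 and 4.13% in the PVN and 3.88, 5.50 and 7.03% in the CEA (log2 ratio -0.80 ± 0.09), so that its 3p arm was PVN higher and its 5p arm CEA higher. miR-374, also with a larger 5p share in the CEA, had 64.4, 67.0 and 70.4% in the PVN and 73.1, 75.6 and 78.6% in the CEA. For miR-221, CEA higher in both arms, the 3p arm differed more than the 5p arm, and the 5p share was 22.0, 25.1 and 28.9% in the PVN and 13.6, 16.5 and 17.7% in the CEA. miR-203a and miR-203b are antisense to each other and mirrored each other (log2 ratio differences of -2.11 and 2.08), so they cannot be told apart.

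**Figure D5:**
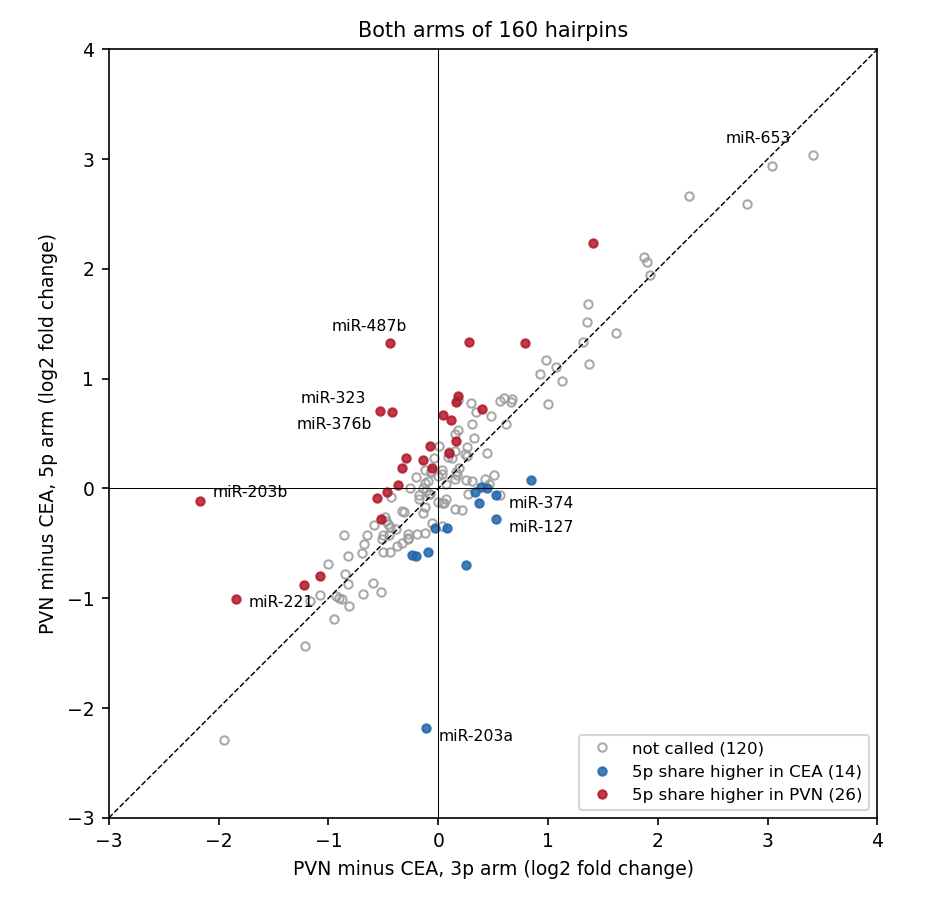
Log2 difference (PVN minus CEA) of the 5p arm against that of the 3p arm for 160 hairpins, with filled points for the 40 hairpins whose arm ratio differed between the nuclei (26 with a larger 5p share in the PVN in red, 14 with a larger 5p share in the CEA in blue). Most hairpins lie near the dashed line of equal differences, and miR-323, miR-376b and miR-487b lie in the upper left, where the 5p arm was PVN higher and the 3p arm CEA higher.

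Of 42 groups of hairpins within 10 kb of each other, 23 had miRNAs that passed from at least 2 hairpins. In 11 of these all that passed were PVN higher and in 8 all were CEA higher. In the other 4 they went both ways, among them the largest group of the Dlk1-Dio3 locus, with 20 PVN higher and 6 CEA higher of 51. In 1 of the 11 PVN-higher groups the miRNAs that passed were miR-3576 and miR-3592. They are antisense to miR-539-5p and miR-382-3p and had equal or near-equal counts to them. miR-382-3p was also counted in the largest Dlk1-Dio3 group. With all 18 libraries kept, CEA HT replicate 1 among them, those of the CEA varied more among themselves than those of the PVN. The SDs without that library were not computed. Of the miRNAs with at least 10 CPM, the SD of the log2 level was larger in the CEA for 67.9% of the PVN-higher, 72.1% of the CEA-higher and 61.0% of those that did not pass.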

How the data were processed

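Small RNA libraries of the PVN and the CEA were made by the authors with a NEBNext small RNA kit. The deposited values used here are raw counts of reads per miRNA, without normalization. The study's methods map its reads to the rat genome mRatBN7.2, the submitters' processing notes name HISAT2, featureCounts and the human builds GRCh38 and hg38, and the settings for miRNA reads, including strand and reads with several matches, are not given in the sources used here. The table also holds 24 per-sample columns normalized by the authors, which were not used.

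The counts of 18 libraries were fitted with edgeR 4.0.16 in R 4.3.3 (TMM, glmQLFit, glmQLFTest, miRNAs with at least 1 count, treatment as covariate, adjusted p under 0.05), which was tested on simulated data. Contrasts within treatments and both interactions used the same settings, the second with all 24 libraries. Arm ratios, log2((5p count + 0.5)/(3p count + 0.5)), were fitted with limma 3.58.1. DESeq2 1.42.0 and other scalings, filters and left-out libraries were alternatives. Groups came from the sample labels. Of 703 known miRNAs, 637 matched a RefSeq sequence by name.

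Named were the 12 miRNAs of largest log2 difference in each direction (passing, at least 10 CPM, no overlap, known), the 5 most abundant, up to 4 members with the smallest p of each group and those against its direction, the 3 smallest p of each interaction and 5 arm ratios in each direction, plus relatives of these in hairpin or seed. The members, groups and rules were chosen with earlier results of these data known. miR-124-3p, miR-34a-5p, miR-216a, miR-451-5p and miR-487b were added after their values were seen. Numbered PVN and CEA libraries were not treated as pairs, because the study's methods do not tie them to 1 animal and not every pair correlated above 0.1. The correlation was above 0.1 in 5 of 9 pairs (range -0.015 to 0.579), so a factor shared by some pairs remains possible.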

Additional observations from a re-analysis of the deposited data

Results flagged for a closer look

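Among 253 groups of 9 libraries (each named miRNA in each nucleus with at least 10 reads in some library), 36 had a highest or lowest library that stood apart from the nearest other by more than Dixon's 95% limit on the log2 scale. Chance alone gives about 1 in 20 groups, and miRNAs of 1 library are not independent. In 18 of the 36 the library was PVN HT replicate 3, and in 8 it was CEA HT replicate 1. The cause was not tested.

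PVN HT replicate 3 was the highest PVN library for let-7g-3p (40.1 CPM), miR-132-3p (1064 CPM), miR-135a-5p (2189 CPM), miR-135b-5p (718 CPM), miR-212-3p (167 CPM), miR-29a-5p (18.2 CPM), miR-29c-3p (121 CPM) and miR-3065-5p (415 CPM). It was the lowest for miR-106b-3p (56.1 CPM), miR-139-3p (21.3 CPM), miR-143-5p (19.6 CPM), miR-181a-5p (3323 CPM), miR-216b-5p (12.6 CPM), miR-221-3p (269 CPM), miR-298-5p (129 CPM), miR-337-5p (153 CPM), miR-344b-5p (56.6 CPM) and miR-412-5p (74.5 CPM).

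CEA HT replicate 1 was the highest CEA library for miR-148a-3p (212436 CPM), miR-138-1-3p (64.1 CPM), miR-222-3p (1149 CPM) and miR-493-3p (169.9 CPM), and the lowest for miR-126a-5p (174 CPM), miR-181c-3p (28.9 CPM), miR-181c-5p (20.7 CPM) and miR-7a-2-3p (10.4 CPM). CEA HT replicate 3 was the lowest for miR-200a-5p (0.0753 CPM), miR-296-3p (0.753 CPM), miR-452-5p (0.527 CPM) and miR-653-5p (21.8 CPM). In the other CEA libraries, SEA replicate 3 was highest for miR-17-5p (109 CPM) and miR-486 (93.6 CPM) and SEA replicate 2 for miR-204-5p (901 CPM). In the other PVN libraries, HT replicate 1 was highest for miR-122-5p (12 CPM), SEA replicate 3 was highest for miR-223-5p (0.861 CPM) and HT replicate 2 was lowest for miR-344i (7.75 CPM).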

How the results depend on the processing

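The count of 387 miRNAs lay between 375 and 397 under 4 other scalings or tools, was 317 at an adjusted p under 0.01, and was 379 without the 3 libraries that stood apart, an alternative chosen after seeing the data. A minimum of 2-fold left 145, with 82 PVN higher and 63 CEA higher. When 1 library at a time was left out, the count was 364 to 393 (179 to 194 PVN higher, 179 to 199 CEA higher), and within treatments 206 to 261 (HT), 165 to 239 (HT+EA) and 174 to 232 (SEA). The 40 arm ratios became 36 to 52. The treatment interaction gave 0 to 5 miRNAs, 5 without CEA HT replicate 2 and 1 without PVN HT+EA replicate 1, and the hepatectomy interaction 0 to 3, with 3 without replicate 1 of either NC group. The cause was not tested. Of 132 named miRNAs that passed, 19 lost their call under some alternative and none changed direction. With the replicate number as a block 377 passed. With numbered pairs as a block 380 passed, and 2 miRNAs passed the treatment interaction, among them miR-741-3p. Among the named miRNAs, let-7e-5p, miR-201-5p, miR-218a-1-3p and miR-223-5p lost their calls with these pairs, and miR-451-5p passed. Of the 9 pairs, 6 correlated best with their own number. Below 1 CPM 11% passed, with a median SE of 0.85.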
